A study of Homo sapiens with 13 samples.

Results

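The ZBTB genes encode transcription factors that join an N-terminal BTB domain to C-terminal zinc fingers. All protein-coding genes whose symbol is ZBTB followed by a number, with or without letters after it, were taken, and 40 of the 59204 genes in the count tables met this rule. ZBTB8OS, which shares only the symbol root, was left out, and ZBTB8A is not analysed here. The cells were K562, an established human chronic myeloid leukaemia line with erythroid features, and no group carried a genetic change or drug. The labelled libraries came from cells given 30 µM 4-thiouridine (4sU, a uridine analogue built into new RNA) for 12 h (fresh medium every 3 h), then washed and kept in medium with 3 mM uridine for 0, 1, 2, 4, 8 or 12 h. There were 2 libraries at each of these 6 times and 1 library from K562 cells that received no 4sU. In SLAM-seq, alkylated 4sU is read as C, so that reads made during the pulse can be told from older or later ones; they are called labelled counts here. Libraries were read from the 3′ ends of mRNAs, and Drosophila S2 RNA (5%) was added to each.

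The BTB domain pairs the factors into dimers and docks corepressors such as BCOR, or the ubiquitin ligase scaffold CUL3, while the zinc fingers choose the DNA sites. Many members act as repressors of developmental genes. In blood, ZBTB7A silences fetal globin genes, ZBTB16 is fused to a retinoic acid receptor in a rare leukaemia, and ZBTB7B directs T cell fate in mice.

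Library totals lay between 9004529 counts (replicate 2 of 0 h) and 17425584 counts (no 4sU), and the 40 members held 6260 to 11400 of them. The labelled share of all counts was 35.9 and 36.1% at 0 h and 10.9 and 10.6% at 12 h. A gene without a count could still reach 0.333 CPM (counts scaled to library size) in the shallowest library, and such limits and the intervals below cover counting error only. All 9 erythroid markers, among them GATA1 and the fetal globins, had counts, with a sum of 4407 to 13093 CPM in a library. The 5 lymphocyte markers summed to 17.7 to 36.2 CPM, mostly CD3D, the 3 markers of granulocytes and monocytes to 0.689 to 7.16 CPM, and of the 2 epithelial markers EPCAM gave 53.6 to 67.1 CPM and KRT5 was at 0. The counts of 648 Drosophila genes split the libraries along their first component (66.2% of variance). Both libraries of 0, 1 and 2 h and replicate 1 of 4 h lay on one side, and the other held replicate 2 of 4 h, both libraries of 8 and 12 h and the one without 4sU. This split runs almost with time, and its part in the results was not tested. Where the call of a single member is described below, a change of that call with the side is given. Other calls that the side changes enter only the counts.

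Labelled RNA of most measurable ZBTB genes was lost within a few hours of the wash. Of the 40 members, 26 had enough counts for the decay test, which needed a mean of 5 CPM and 100 labelled counts in all, and 25 of them fell faster than the median gene (edgeR quasi-likelihood test, Benjamini-Hochberg adjusted). Among all 9679 genes tested, 36.1% fell faster and 36.3% slower. No member fell slower, at 0 also at an unadjusted p under 0.05 and 0 by DESeq2, and ZBTB44 passed in neither direction. The median apparent half-life of the 26 members was 1.98 h, with 1.88 and 1.93 h in the replicate series fitted alone (SD 0.0351, n = 2), against 4.19 h for all genes tested, whose 10th and 90th percentiles were 2.27 and 10.3 h. Only 4.84% of all genes tested lay below the members' median. Half-lives of 16 members were under 2 h, those of 8 were from 2 to under 3 h, and those of ZBTB17 and ZBTB44 were over 3 h. When the spike-in side entered the model, 21 members fell faster (22.2% of all genes tested), and the calls of ZBTB7B, ZBTB14, ZBTB17 and ZBTB34 were lost. Half-lives are called apparent because growth of the culture, which dilutes labelled RNA, was not recorded.

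**Figure D1:**
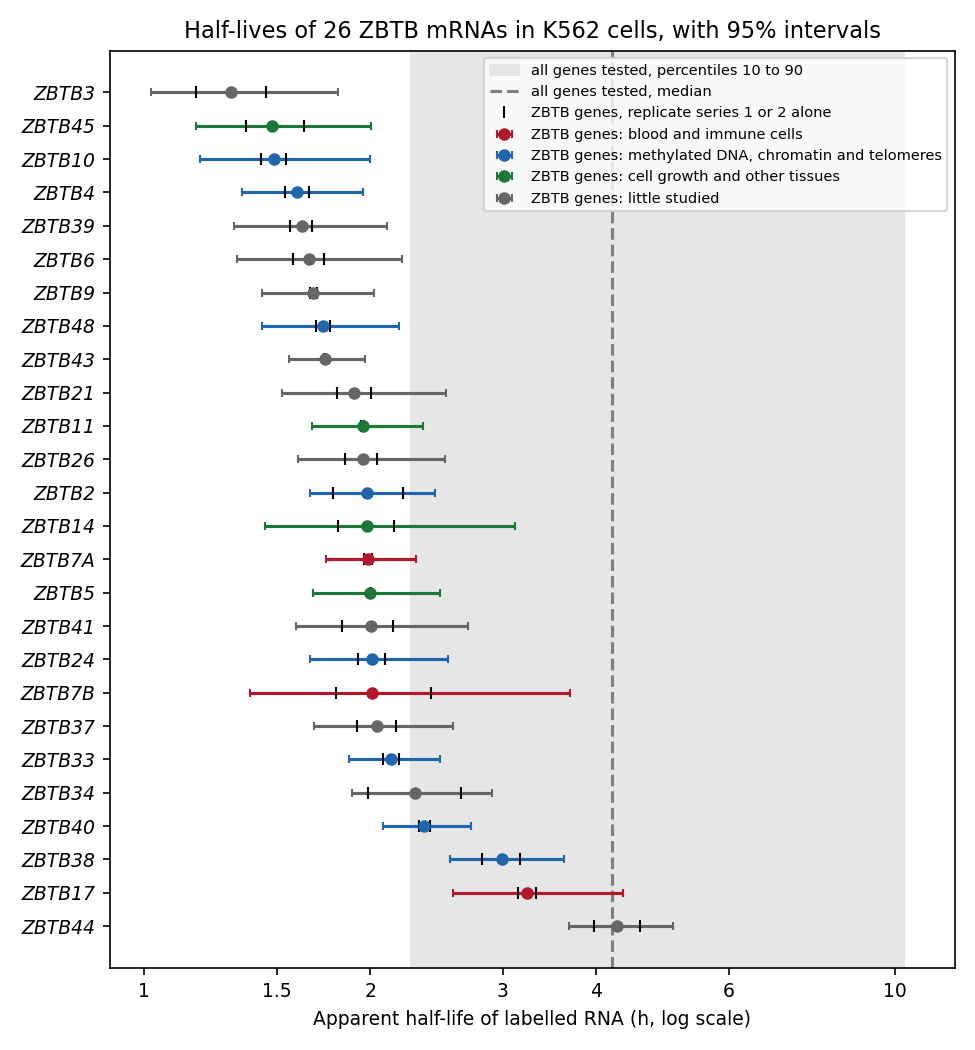
Apparent half-life of labelled RNA (x axis, h, log scale) of the 26 ZBTB genes tested, with 95% intervals over 12 libraries, coloured by role, and the value of each replicate series as a black tick. The grey band spans the 10th to 90th percentile of all genes tested (2.27 to 10.3 h) and the dashed line is their median (4.19 h); all members but ZBTB44 lie left of the line.

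The labelled share, that is the percent of a gene's counts that were labelled, needs no model, but it moves with the gene's total as well as with its labelled RNA. Over the 26 members its median was 70.1% at 0 h, 60.6% after 1 h, 41.7% after 2 h, 17.6% by 4 h, 3.75% by 8 h and 1.18% at 12 h. The lowest and highest members were 32.8 and 83.1% at 0 h, 19.8 and 62.6% after 2 h, 4.59 and 39.5% by 4 h, and 0 and 7.43% at 12 h. No member had a labelled count in the library without 4sU. For ZBTB7A, where 0 of 3390 counts were labelled there, this allows a share of up to 0.0885%. Relative to library size, the labelled counts of 14 members lay below their 0 h values without overlap of replicates at 1 h (25.6% of all genes tested), of 24 at 2 h (52.4%) and of all 26 at 4 h (85.9%). In 6 members the mean at 1 h was at or above that at 0 h.

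**Figure D2:**
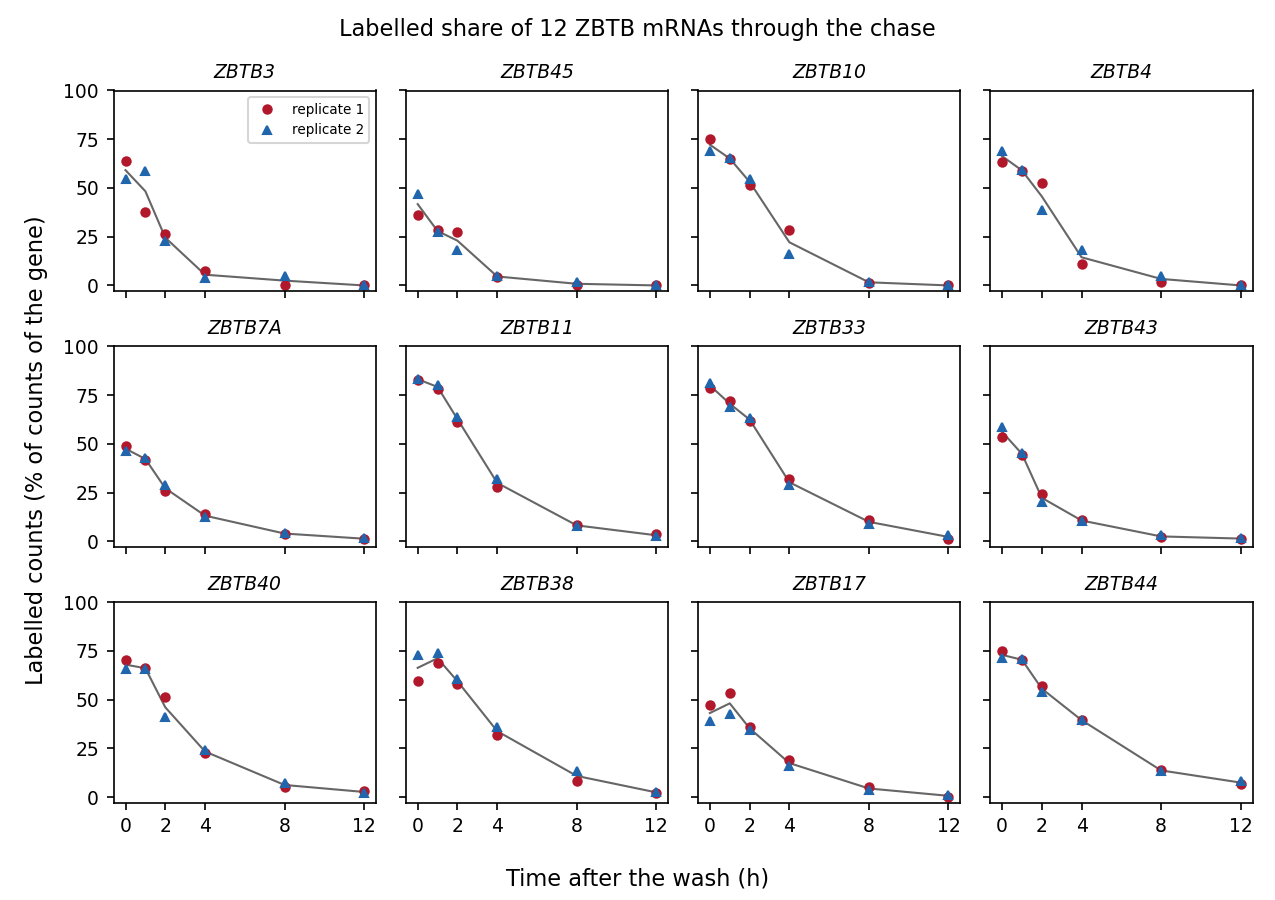
Labelled counts as a percent of the counts of a gene (y axis) against time after the wash (x axis, h) for 12 ZBTB genes, with each replicate as a point and the mean as a line. ZBTB3 and ZBTB45 are under 8% by 4 h in both replicates, whereas ZBTB44 is at 39.5 and 39.4%.

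The shortest half-lives belonged to ZBTB3, ZBTB45, ZBTB10 and ZBTB4. ZBTB3 (ENSG00000185670; chromosome 11, 62748319 to 62754188, GRCh38) was 63.8 and 54.4% labelled at 0 h, 37.8 and 58.8% after 1 h, 26.3 and 22.8% after 2 h, 7.19 and 3.81% by 4 h, 0 and 4.94% by 8 h and 0% at 12 h, where its counts were 61 and 53. Its values at 1 h overlapped those at 0 h, and those from 2 h on lay below them. The half-life was 1.31 h (95% interval 1.02 to 1.81; adjusted p = 3.83e-07), and 0.155% of all genes tested had a shorter one. ZBTB45 (ENSG00000119574; chromosome 19, 58513530 to 58538911) started from a lower share, 36.4 and 47.1% at 0 h, and had 28.2 and 27.6% after 1 h, 27.6 and 18.3% after 2 h, 4.47 and 4.71% by 4 h, 0 and 1.68% by 8 h and 0% at 12 h. Its half-life was 1.48 h (1.17 to 2.00). Neither gene has a role that is well established in blood.

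ZBTB10, which binds telomeric repeat variants and represses SP-factor targets, was 75.3 and 69.1% labelled at 0 h, 64.7 and 65.5% after 1 h, 51.5 and 54.8% after 2 h, 28.4 and 15.9% by 4 h, 1.45 and 1.75% by 8 h and 0% at 12 h. Its half-life was 1.49 h (1.19 to 2.00). It was 1.69 h over 0 to 4 h (1.17 to 3.01) and 0.988 h over 2 to 12 h (0.759 to 1.41), intervals that overlap, and its libraries of 8 and 12 h held 1, 1, 0 and 0 labelled counts. ZBTB4 (ENSG00000174282; chromosome 17, 7459366 to 7484263), which binds methylated CpG, was 63.5 and 69.1% labelled at 0 h, 58.9 and 59.1% after 1 h, 52.7 and 38.7% after 2 h, 10.8 and 18.1% by 4 h, 1.72 and 4.95% by 8 h and 0% at 12 h. Its half-life was 1.60 h (1.35 to 1.96), and the intervals of these 4 members overlap, so that their order was not resolved.

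With library size as the offset, the longest half-lives belonged to ZBTB44, ZBTB17, ZBTB38 and ZBTB40. ZBTB44 (ENSG00000196323; chromosome 11, 130226677 to 130314908) was 74.7 and 71.2% labelled at 0 h, 70.2 and 70.7% after 1 h, 57.2 and 54.0% after 2 h, 39.5 and 39.4% by 4 h, 13.7 and 13.6% by 8 h and 6.69 and 8.18% at 12 h. From 4 h on it had the highest mean share of the 26 members at each time. Its half-life of 4.26 h (3.67 to 5.06) was longer than that of 51.0% of all genes tested, and its slope of −0.24 log2 units per hour (SE 0.01) did not differ from the median slope of −0.25 beyond its error (adjusted p = 0.805). With its own total count as the offset the half-life was 3.42 h (adjusted p = 0.0538). The interval of ZBTB44 lay above those of all members but ZBTB17 and ZBTB7B.

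ZBTB17 (ENSG00000116809; chromosome 1, 15941869 to 15976132), known as MIZ1, is a zinc finger partner through which MYC represses genes. It was 47.1 and 39.1% labelled at 0 h, 53.6 and 42.6% after 1 h, 36.2 and 34.4% after 2 h, 18.9 and 16.0% by 4 h, 5.02 and 3.79% by 8 h and 0 and 1.28% at 12 h. The share at 1 h overlapped that at 0 h, and the half-life was 6.39 h over 0 to 4 h and 2.57 h over 2 to 12 h. Over the whole chase it was 3.23 h (2.58 to 4.34; adjusted p = 0.0402). Offset by the total of ZBTB17 itself, the half-life was 2.20 h (adjusted p = 3.73e-05), below those of ZBTB38 (2.80 h), ZBTB21 (2.73 h), ZBTB33 (2.63 h) and ZBTB11 (2.53 h). With library size as the offset the call was lost when replicate 1 was left out at 1 h (0.0531), 8 h (0.0508) or 12 h (0.163), when replicate 2 was left out at 8 h (0.0741) or 12 h (0.0631), and with the side as a factor (0.277); over 0 to 4 h alone the slope lay 0.02 log2 units per hour above the median.

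ZBTB38 (ENSG00000177311; chromosome 3, 141324213 to 141449792), a methyl-CpG binder of the same branch as ZBTB4, was 59.5 and 73.1% labelled at 0 h, 68.6 and 73.8% after 1 h, 58.2 and 60.7% after 2 h, 31.8 and 35.8% by 4 h, 8.48 and 13.2% by 8 h and 2.22 and 2.58% at 12 h. It held its share for the first hour and then lost it, with 4.18 h over 0 to 4 h (adjusted p = 0.369) and 2.53 h over 2 to 12 h. Its half-life over the whole chase was 3.00 h (2.56 to 3.62; adjusted p = 0.00114). ZBTB40 was 70.4 and 65.5% labelled at 0 h, 66.3 and 65.8% after 1 h, 51.3 and 40.8% after 2 h, 22.5 and 24.3% by 4 h, 5.15 and 7.27% by 8 h and 2.93 and 2.31% at 12 h, with a half-life of 2.36 h (2.08 to 2.72). A shorter half-life late than early was found for 18 of the 26 members and a longer one for 8, with a median ratio of 0.850; these differences were not tested. The medians over members were 2.04 h for 0 to 4 h and 1.81 h for 2 to 12 h, against 5.81 and 3.72 h for all genes tested.

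Of the 9 members known from blood and immune cells, ZBTB7A, ZBTB17 and ZBTB7B could be tested for decay, and all 3 fell faster. With the side as a factor only 1 of them, ZBTB7A, did (adjusted p = 0.277 for ZBTB17 and 0.175 for ZBTB7B). ZBTB7A, the fetal globin repressor also called LRF (ENSG00000178951; chromosome 19, 4044364 to 4066945), had the most counts of any member, 2168 to 3390 in a library. It was 48.7 and 46.3% labelled at 0 h, 41.8 and 42.6% after 1 h, 25.8 and 28.6% after 2 h, 13.9 and 12.3% by 4 h, 3.58 and 4.32% by 8 h and 1.15 and 1.45% at 12 h. The replicates of each time were apart from those of the next, and the half-life was 1.98 h (1.75 to 2.30; adjusted p = 1.72e-12), close to its early and late values of 1.92 and 1.98 h. Its targets HBG1 and HBG2, near-identical copies whose reads may have been split between them, fell slower. Their half-lives of 18.7 h (14.6 to 25.8) and 17.7 h (13.8 to 24.9) exceed the 12 h chase. ZBTB7B, the T helper factor ThPOK, was 36.5 and 41.3% labelled at 0 h and 50.4 and 29.1% after 1 h, then 40.4 and 27.8% after 2 h, 8.08 and 7.77% by 4 h, 2.73 and 0.885% by 8 h and 0 and 1.29% at 12 h. Its replicates overlapped over the first 2 h, and its half-life of 2.01 h was loosely bounded (1.38 to 3.69) on 46 to 498 counts in a library.

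The other blood members were sparse. ZBTB1, needed for lymphocyte development in mice, had 12 to 44 counts in a library, and its labelled counts were 15 and 37 of 18 and 44 at 0 h and 2 and 1 of 16 and 12 at 12 h. Without the filter on low counts its labelled RNA also fell faster than the median (adjusted p = 0.000943). ZBTB16 had 0 to 7 counts, ZBTB32 0 to 2, ZBTB20 1 to 18 and ZBTB46, a marker of dendritic cells, 2 to 37. ZBTB12 (1 count over all 13 libraries), ZBTB7C (3), ZBTB8B (11) and ZBTB47 (16) were at or near 0 throughout. Dropping the filter left 36 members with a labelled count, of which 29 fell faster (23.6% of all genes so fitted) and 0 slower. At 500 or more labelled counts 13 of 14 fell faster (38.3% of all genes) and 0 slower.

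All 8 members linked to methylated DNA, chromatin or telomeres fell faster, with and without the side as a factor, at a median half-life of 1.99 h. ZBTB33 (Kaiso; chromosome X, 120250752 to 120258398), which binds methylated CpG and the catenin CTNND1, was 78.8 and 81.0% labelled at 0 h, 72.2 and 68.9% after 1 h, 61.6 and 63.2% after 2 h, 31.8 and 28.7% by 4 h, 11.1 and 8.85% by 8 h and 1.05 and 3.38% at 12 h, with 2.13 h (1.87 to 2.48). Its groups were apart at each of these times. ZBTB24, mutated in an immunodeficiency with centromere instability, was 72.7 and 73.0% labelled at 0 h, 57.5 and 67.0% after 1 h, 32.1 and 35.3% after 2 h, 14.0 and 10.8% by 4 h, 2.94 and 3.74% by 8 h and 0.633 and 0% at 12 h, with 2.01 h (1.66 to 2.53). The last exons of ZBTB24 overlap MICAL1 on the same strand, and reads of the 2 genes may have been mixed.

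ZBTB48, a telomere binder, had the lowest share of the 26 members at 0 h, 34.9 and 30.7%, then 33.5 and 29.6% after 1 h, 19.2 and 20.4% after 2 h, 6.98 and 6.0% by 4 h, 1.28 and 0.667% by 8 h and 1.49 and 0.621% at 12 h. Its half-life was nevertheless among the shorter ones, 1.73 h (1.43 to 2.19). ZBTB2 was 69.6 and 75.0% labelled at 0 h, 60.8 and 51.5% after 1 h, 43.3 and 44.6% after 2 h, 31.0 and 22.7% by 4 h, 2.67 and 8.11% by 8 h and 0 and 3.39% at 12 h, with 1.98 h (1.66 to 2.44). Its replicate series gave 1.78 and 2.21 h.

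Among the 7 members known from cell growth or other tissues, 4 could be tested, and all 4 fell faster. ZBTB11, needed for neutrophils in zebrafish (ENSG00000066422; chromosome 3, 101648889 to 101677495), had the highest share of the 26 at 0 h, 82.8 and 83.4%. It kept 77.9 and 80.4% after 1 h and then had 61.3 and 64.0% after 2 h, 28.1 and 31.8% by 4 h, 8.52 and 7.77% by 8 h and 3.51 and 2.62% at 12 h. The half-life was 1.95 h (1.67 to 2.35), with 2.20 h over 0 to 4 h and 1.63 h over 2 to 12 h. ZBTB5, a repressor of CDKN1A, had 2.0 h (1.68 to 2.48), and ZBTB14, which binds the MYC promoter, 1.98 h (1.45 to 3.12), a call that was lost over 2 to 12 h (adjusted p = 0.273) and with the side (0.143). ZBTB49, which was not in the decay test, had 82 labelled counts in all. Of the 16 little studied members 11 were tested and 10 fell faster (9 with the side as a factor), at 1.31 to 2.29 h. Among the 10 were ZBTB39 at 1.62 h, ZBTB6 at 1.66 h, ZBTB9 at 1.68 h, ZBTB43 at 1.74 h and ZBTB21 at 1.90 h.

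Related genes were counted for comparison. The 8 BTB zinc finger genes with other symbols gave 6 tested, all 6 faster, with a median of 2.04 h, from 1.35 h for GZF1 to 2.27 h for ZNF131. Of 241 tested ZNF genes, zinc finger factors that mostly lack a BTB domain, 201 fell faster and 8 slower, with a median of 2.38 h. Of 14 tested KLHL genes, which pair a BTB domain with kelch repeats, 8 fell faster and KLHL18 slower, with a median of 3.25 h. Of the 22 corepressors and ligase partners 5 fell faster and 12 slower, with a median of 5.18 h; with own totals as the offset 10 fell faster and 11 slower (4.06 h). BCOR (2.26 h) and GATAD2B (2.32 h) were the shortest of these and KDM1A (22.3 h) and HDAC1 (23.4 h) the longest. Of 10 tested partners and targets 4 fell faster and 3 slower, with MYC the shortest at 1.35 h. With own totals as the offset, 6 other BTB zinc finger genes, 198 ZNF genes, 11 KLHL genes and 7 partners and targets fell faster. Slower then were 0, 13, 2 and 2 of them, and the KLHL median was 2.62 h. With the side as a factor 4, 140, 6 and 2 of them fell faster, as did 5 corepressors and ligase partners. All these counts describe the lists, and differences between the lists were not tested.

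The 3′ ends of the members were examined because the reads come from them. In 1 coding transcript per gene (GENCODE 29), the 3′ UTRs of the 26 members had a median of 3004 bases, against 1093 bases in 8427 coding genes tested for decay. ATTTA, the core of AU-rich elements that many decay factors bind, was present in 22 of the 26 (84.6%), against 70.0% of coding genes. Restricted to the last 500 bases of UTRs at least that long, it was present in 14 of 24 members (58.3%) and in 63.3% of coding genes. The longer nonamer TTATTTATT, which contains ATTTA, was present in 5 of 26 (19.2%) against 8.14%, and in the last 500 bases in 2 of 24 (8.33%) against 2.66%. TGTANATA, the core bound by Pumilio proteins, was present in 12 of 26 (46.2%) against 27.7%, and in the last 500 bases in 4 of 24 (16.7%) against 14.7%. Only the transcript strand was searched.

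The nonamer sites of the 5 tested members that have one are printed with the nonamer in capitals (30 bases each, 5′ to 3′, GENCODE 29 on GRCh38, T for U), since these members span half-lives of 1.62 to 2.29 h. They lie at chr9:122908389-122908418 (ZBTB6, minus strand), chr9:122915814-122915843 (the first of 2 overlapping sites of ZBTB26, minus strand), chr9:126884964-126884993 (ZBTB34, plus strand), chr1:173899419-173899448 (ZBTB37, plus strand) and chr12:57001263-57001292 (ZBTB39, minus strand), all in 3′ UTRs.
ZBTB6: attatttataTTATTTATTcctgttcagta
ZBTB26: actctgtcagTTATTTATTtattatttaat
ZBTB34: ctggtcagggTTATTTATTaaattttatat
ZBTB37: ttacagccagTTATTTATTtaaaaagtagt
ZBTB39: acattaatatTTATTTATTtttgtttttgt
ZBTB44, the member with the longest half-life, holds 20 ATTTA and 4 TGTANATA in a 3′ UTR of 7314 bases, more TGTANATA than any other tested member. They are printed with the motif in capitals beside the single site of ZBTB7A, which has a half-life of 1.98 h. The ZBTB44 sites lie on the minus strand at chr11:130232311-130232340, chr11:130232196-130232225, chr11:130231195-130231224 and chr11:130226957-130226986, the last of them 299 bases before the transcript's end, and the ZBTB7A site at chr19:4044920-4044949 (minus strand).
ZBTB44 site 1: ataagtttctgTGTAGATAcccaaagttta
ZBTB44 site 2: accatactaaaTGTATATAtttttaattat
ZBTB44 site 3: caagggataatTGTATATAtagtagtattt
ZBTB44 site 4: aacatgtgtatTGTATATAttctgtatagt
ZBTB7A: caatcacatacTGTATATAgacgtgaatcg

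The number of ATTTA did not order the members by half-life, and no correlation was taken for the other motifs. ZBTB3, ZBTB45, ZBTB48 and ZBTB2, at 1.31, 1.48, 1.73 and 1.98 h, have no ATTTA in their 3′ UTRs of 1127, 524, 68 and 1404 bases. Across the 26 members the number of ATTTA and the log2 half-life had r = 0.14 (Spearman 0.24), against −0.15 (−0.20) across 8427 coding genes. These correlations are across genes, which are not independent replicates and share the libraries.

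The base content of the 3′ end went with the labelled share at 0 h across genes. The percent of T in the last 300 bases of the transcript and the labelled share at 0 h had r = 0.72 (Spearman 0.62) over the 26 members and r = 0.55 over 8427 coding genes. ZBTB48, ZBTB7A, ZBTB17 and ZBTB45 have 18.3, 20.0, 20.7 and 21.0% T there, and mean labelled shares of 32.8, 47.5, 43.1 and 41.7% at 0 h. ZBTB34 has 38.3% T and was 78.9% labelled. ZBTB43, with 40.7% T and 56.2% labelled, lay off this line, as did ZBTB11, with 24.7% T and 83.1% labelled. The T content and the log2 half-life had r = 0.07 over the members and −0.11 over the 8427 coding genes. The cause of the relation between T content and the share at 0 h was not tested. Genes that differ in that share also tend to differ in T content.

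**Figure D3:**
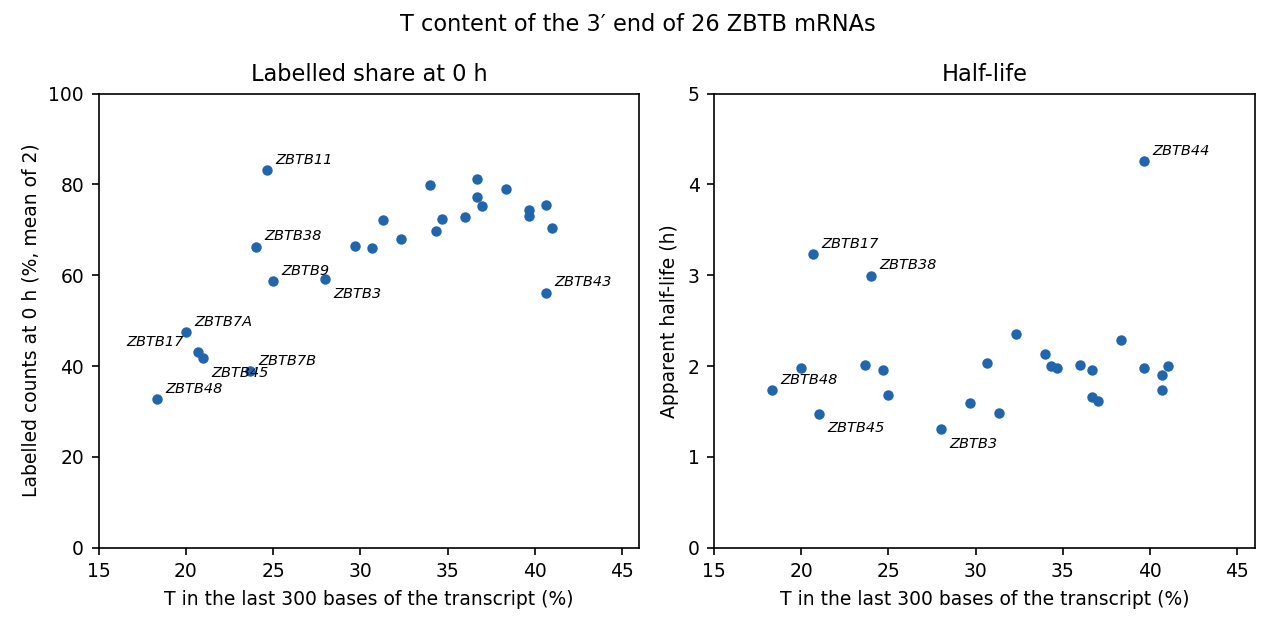
T content of the last 300 bases of the transcript (x axis, percent) of 26 ZBTB genes against the mean labelled share at 0 h (left, percent, n = 2) and the apparent half-life (right, h), 1 point per gene. The share is lowest for ZBTB48 (32.8%), which has the least T (18.3%), while T content and log2 half-life had r = 0.07.

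Total RNA of the members changed in both directions over the chase. Between 12 h and 0 h, 10 of the 34 members tested were higher and 13 lower, where 27% of all 16255 genes tested were higher and 29.1% lower. The median log2 difference was −0.22 for the members and −0.06 for all genes. Levels are shares of a library, so a lower CPM can mean fewer transcripts of a gene or more of others. In bulk RNA fewer cells and less RNA per cell cannot be told apart. Scaling by spike-in totals raised the median of all genes by 0.42 on the log2 scale and gave 15 members higher and 7 lower (40.4 and 13.7% of all genes). Fitted with the spike-in side, 7 were higher and 5 lower (17.9 and 19.2% of all genes), and without replicate 2 of 0 h 8 were higher and 8 lower.

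The largest rises were those of ZBTB46, ZBTB18 and ZBTB42. ZBTB46 (chromosome 20, 63743666 to 63831244) had 1.46 and 1.68 CPM at 12 h, against 0.313 and 0.228 CPM at 0 h, where it held 3 and 2 counts (log2 difference 2.49, SE 0.68; adjusted p = 0.00264, 0.173 with the side). ZBTB18, a repressor of neuronal genes (chromosome 1, 244048939 to 244057476), had 5.04 and 5.85 CPM at 12 h, against 1.78 and 0.343 CPM (17 and 3 counts) at 0 h, a difference of 2.32 (SE 0.40). Its close relative ZBTB42 (chromosome 14, 104800596 to 104804712) had 10.5 CPM in both libraries at 12 h, against 2.4 and 2.2 CPM at 0 h, a difference of 2.19 (SE 0.26; adjusted p = 4.7e-08, 0.00099 with the side). The rise of ZBTB42 came late, since its libraries of 1, 2 and 4 h held 2.22 to 4.03 CPM and those of 8 h held 8.09 and 9.61 CPM.

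ZBTB17 was at 9.16 and 10.8 CPM at 1 h, 12.8 and 11.5 CPM at 2 h, 16.4 and 18.8 CPM at 4 h, 21.7 and 23.8 CPM at 8 h and 27.9 and 28.5 CPM at 12 h. Against the 9.09 and 12.6 CPM of 0 h its 12 h level was higher by 1.39 on the log2 scale (SE 0.15). ZBTB22 had 6.26 and 6.07 CPM at 12 h, against 1.67 and 1.83 CPM at 0 h. The long-lived ZBTB44 had 102 and 107 CPM at 12 h, against 65.7 and 70.4 CPM at 0 h (0.62, SE 0.09; adjusted p = 5.45e-07, 0.003 with the side). Its labelled RNA held 6.83 and 8.78 CPM at 12 h, against 49.1 and 50.1 CPM at 0 h, and its unlabelled RNA 95.4 and 98.5 CPM at 12 h, against 16.6 and 20.3 CPM at 0 h. In mean CPM, the unlabelled counts of all 26 members tested for decay rose from 0 h to 12 h. The median ratio of 12 h to 0 h was 2.53 over these members and 2.33 over all genes tested. Such a rise was thus not particular to the members, and the difference between the ratios was not tested. In total RNA, ZBTB24, ZBTB25, ZBTB14 and ZBTB7B were higher as well, by 0.80, 1.26, 0.63 and 0.54. With the side the last 3 of these calls were lost (adjusted p = 0.207, 0.437 and 0.601). Those of ZBTB14 and ZBTB7B were also each lost without replicate 2 of 0 h (adjusted p = 0.112 and 0.371) or without 1 of the 12 h libraries.

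The largest falls were those of ZBTB1, ZBTB21 and ZBTB11. ZBTB1 had 1.30 and 0.878 CPM at 12 h, against 1.88 and 5.02 CPM at 0 h (log2 difference −1.65, SE 0.44), and the call was lost without replicate 2 of 0 h (adjusted p = 0.243) and with the side (0.154). ZBTB21 (chromosome 21, 41986831 to 42010387) had 4.47 and 5.05 CPM at 12 h, against 14.5 and 13.7 CPM at 0 h (−1.56, SE 0.19). ZBTB11 had 13.9 and 14.0 CPM at 12 h, against 31.7 and 35.2 CPM at 0 h (−1.26, SE 0.12). The replicates of ZBTB21 and ZBTB11 were close and the groups far apart, and both calls held with the side as a factor (adjusted p = 0.000861 and 4.36e-07).

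ZBTB10 had 4.88 and 3.73 CPM at 12 h, against 9.30 and 10.7 CPM at 0 h (−1.22, SE 0.22), but passed no longer with the side (adjusted p = 0.10). ZBTB33 had 31.0 and 30.3 CPM at 12 h, against 59.8 and 51.7 CPM at 0 h (−0.87, SE 0.11). ZBTB7A had 190 and 196 CPM at 12 h, against 227 and 252 CPM at 0 h, a log2 difference of −0.31 (SE 0.08). This small fall was lost without replicate 2 of 0 h (adjusted p = 0.0727) and with the side (0.0964), and turned to 0.11 with spike-in totals. ZBTB4, ZBTB6, ZBTB37 and ZBTB48 were lower too, with differences of −0.63, −0.68, −0.52 and −0.42. All 4 calls were lost with the side (adjusted p = 0.371, 0.79, 0.0639 and 0.174), where the difference of ZBTB6 was −0.13, and with spike-in totals (0.468, 0.331, 0.679 and 0.995). The first 3 were also lost without replicate 2 of 0 h (0.186, 0.0811 and 0.203) and that of ZBTB48 without replicate 1 (0.162).

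Few members had changed by 2 h, when all libraries compared lie on the same spike-in side. ZBTB22 and ZBTB24 were higher (5.25% of all genes tested were) and 0 members lower by edgeR's quasi-likelihood test and by DESeq2 (1.73% of all genes), though 3 were lower at an unadjusted p under 0.05. ZBTB22 (chromosome 6, 33314406 to 33317942) had 3.26 and 3.97 CPM at 2 h, against 1.67 and 1.83 CPM at 0 h, where it held 16 counts in each library (log2 difference 1.04, SE 0.30; adjusted p = 0.0326). The call was lost when any 1 of the 4 libraries was left out (adjusted p 0.0507 to 0.218). ZBTB24 had 22.1 and 21.3 CPM at 2 h, against 13.4 and 15.6 CPM at 0 h (0.58, SE 0.13; adjusted p = 0.0047), lost only without replicate 1 of 0 h (0.0956).

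**Figure D4:**
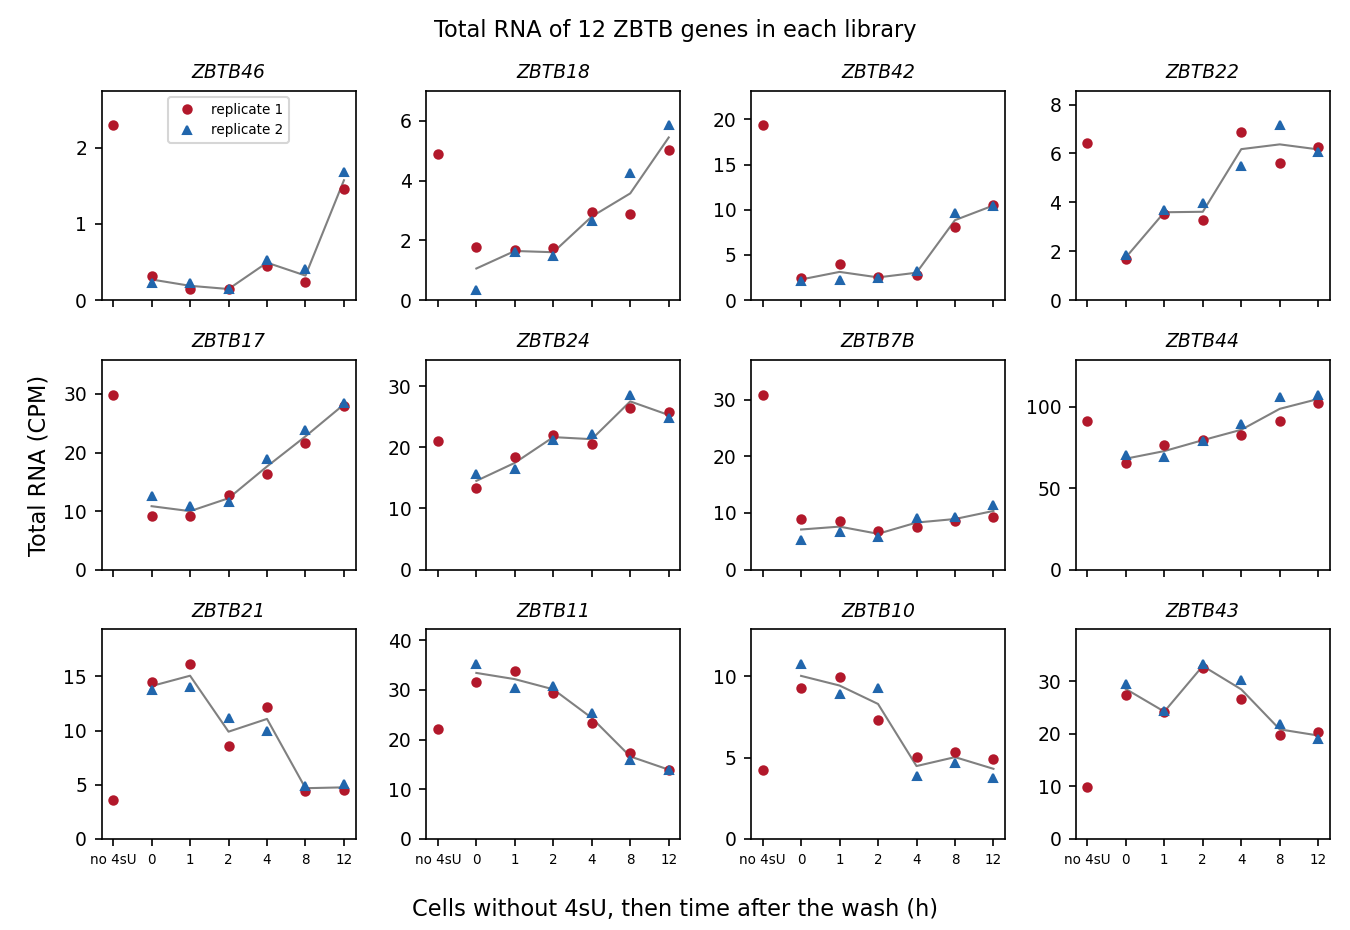
Total RNA (y axis, CPM, from 0) of 12 ZBTB genes in the library without 4sU and at 0 to 12 h after the wash (x axis), with replicates as points and the mean of each time as a line. ZBTB46, ZBTB18, ZBTB42, ZBTB22 and ZBTB17 are lower at 0 h than both without 4sU and at 12 h, whereas ZBTB21 and ZBTB43 are higher at 0 h than in the library without 4sU.

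At the end of the pulse, 9 of the 34 members were higher than in cells without 4sU and 10 lower, where 33.5% of all genes tested were higher and 31.8% lower. The comparison rests on 1 library without 4sU, which was assumed to vary like the others, and shares the 0 h libraries with the comparisons over the chase. It also crosses the spike-in sides; 5 members were higher and 6 lower with the side as a factor (26 and 24.2% of all genes), and 17 higher and 7 lower with spike-in totals (46.4 and 18.4%), which raised the median of all genes by 0.48 on the log2 scale. The largest rises were those of ZBTB21, with 14.5 and 13.7 CPM at 0 h against 3.59 CPM without 4sU (log2 difference 1.97, SE 0.25), and ZBTB43 (chromosome 9, 126805006 to 126838210), with 27.5 and 29.6 CPM at 0 h against 9.85 CPM (1.53, SE 0.15). ZBTB1 differed by as much, 1.53, on 18 and 44 counts at 0 h and 19 without 4sU, and lost its call without replicate 2 of 0 h (adjusted p = 0.329) and with the side (0.196). ZBTB37 was higher by 1.22. ZBTB10 and ZBTB39 were higher by 1.25 and 1.13, but with the side the differences were 0.87 and 0.36 and both calls were lost (adjusted p = 0.0894 and 0.395).

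The largest falls were those of ZBTB42 and ZBTB46. ZBTB42 had 2.4 and 2.2 CPM at 0 h, against 19.3 CPM (312 counts) without 4sU (−3.07, SE 0.27). ZBTB46 had 0.313 and 0.228 CPM at 0 h, against 2.29 CPM (37 counts) without 4sU (−3.03, SE 0.72; adjusted p = 0.0738 with the side). Both stood above their 0 h levels by 12 h and below the level without 4sU. ZBTB7B had 8.88 and 5.25 CPM at 0 h, against 30.8 CPM without 4sU (−2.11, SE 0.22), and was still at 9.36 and 11.3 CPM at 12 h. Its 3′ end overlaps DCST2 on the opposite strand, and the use of strand in counting is not given in the sources used here.

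ZBTB17 had 9.09 and 12.6 CPM at 0 h, against 29.9 CPM without 4sU (−1.47, SE 0.17), and ZBTB2 10.7 and 9.13 CPM at 0 h, against 21.0 CPM (−1.08, SE 0.19). At 12 h ZBTB17 stood at 27.9 and 28.5 CPM, whereas ZBTB2 stood at 8.79 and 8.63 CPM. ZBTB44 was lower at 0 h than without 4sU, a difference of −0.42 (SE 0.10) that lost its call with the side (adjusted p = 0.0856) and turned to 0.06 with spike-in totals. The highly counted ZBTB7A, at 227 and 252 CPM at 0 h against 210 CPM without 4sU, passed in neither direction (0.19, SE 0.09; adjusted p = 0.0749).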

How the data were processed

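SLAM-seq was done on K562 cells, per the labels' protocols, in 13 libraries grouped by their titles. Whether replicates were grown separately is not stated, and p-values then cover only the spread of these samples (possibly technical). The authors deposited raw counts per gene of all reads, of reads they call nascent, and of the Drosophila spike-in. The submitters' processing notes name Trim Galore 0.6.5, bedtools, bcl2fastq 2.17.1.14 and the builds dm6 and hg38. For the aligner, strand use, counting rules and conversions per nascent read the notes name nothing (not given in the sources used here). Members and lists were chosen with earlier results of these data known. Member genes could all be named; those given per library are the 4 shortest and 4 longest half-lives, the largest changes of each contrast and a fixed set of well known members.

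The decay test was that of edgeR 4.0.16 (R 4.3.3; quasi-likelihood test, two-sided, Benjamini-Hochberg adjusted over all genes tested, threshold 0.05). Labelled counts of the 12 chase libraries were regressed on hours, with library size (total counts, TMM) as the offset, and each slope was set against the median slope. Half-lives came from a quasi-Poisson exponential per gene plus the labelled share without 4sU (scipy 1.17.1 and numpy 2.4.6 under Python 3.11.15, with pandas 2.3.3), with 95% intervals. Total counts were tested with edgeR over 7 groups that share 1 spread, after filterByExpr. CPM values of single members are counts scaled by TMM library size. Marker sums and the CPM limit for a count of 0 use raw library totals instead. Transcripts, UTRs and coordinates, counted from 1, are those of GENCODE 29. Limits for a count of 0 use 3 counts. Alternatives tried were scaling by spike-in totals, DESeq2 1.42.0 for size factors or for the test, an offset of the gene's total, other filters and time windows, a replicate block, the spike-in side and leaving out each library. Code was tested on simulated data. Figures used matplotlib 3.10.9.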

Additional observations from a re-analysis of the deposited data

How the results depend on the processing

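The count of members that fell faster, 25, was 21 to 29 under the alternatives run, except 13 of 14 when at least 500 labelled counts were required; no member fell slower under any of them. The median half-life of 1.98 h was 2.02 h with each gene's own total, 2.14 h with spike-in totals, 2.04 h over 0 to 4 h, 1.81 h over 2 to 12 h and 1.89 to 2.01 h when 1 library was left out. Spike-in totals gave 7 members lower at 12 h against 0 h and 17 higher at 0 h against no 4sU. With the side as a factor the numbers were 5 lower at 12 h, 1 lower at 2 h (ZBTB21), and 5 higher and 6 lower at 0 h against no 4sU. DESeq2 called 1 higher at 2 h. Leaving out 1 library gave 24 to 25 faster, 8 to 11 higher and 8 to 13 lower at 12 h, 0 to 1 higher at 2 h, and 8 to 10 higher and 9 lower at 0 h against no 4sU. Leaving out the library without 4sU leaves that contrast with no value. Values that turned sign included the slope of ZBTB17 over 0 to 4 h (0.016 from the median). With spike-in totals they included ZBTB7A at 12 h (0.11), and ZBTB40 (0.47) and ZBTB44 (0.062) at 0 h against no 4sU. Values without a call in either fit turned sign as well. An example is ZBTB14 at 0 h against no 4sU, at −0.18 and, with spike-in totals, 0.29. The cause was not tested.

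Replicate numbers are shared between times. The deviations of same-numbered libraries had a median r of 0.085 over 15 pairs of times (−0.18 to 0.50, with 5 over 0.1), so the numbers were not taken to pair the libraries. With the replicate block 25 members fell faster, 10 were higher and 14 lower at 12 h, and 2 were higher and 0 lower at 2 h. No block could be fitted against the single library without 4sU. Depth limits the 14 members outside the decay test.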
